A study of Mus musculus with 13 samples.

Results

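The comparison described here is adult social defeat against no defeat in mice that received a control virus coding for green fluorescent protein (GFP), measured in tissue punches of the ventral tegmental area (VTA). It takes every library labelled as GFP virus, 7 of the 13 in the series: 4 from defeated mice and 3 from mice without defeat. All genes that reached 10 normalized counts in at least 2 of the 13 libraries were compared, which kept 17755 of 26264. The series is about priming of the VTA for later stress, and its other 6 libraries carry a virus that overexpresses the histone methyltransferase Setd7.

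GFP control (n = 3, 1 female and 2 male) is the GFP virus without adult defeat, and GFP defeat (n = 4, 2 female and 2 male) is the same virus with it. Setd7 control (n = 4, 2 female and 2 male) and Setd7 defeat (n = 2, 1 female and 1 male) are the matching groups with the Setd7 virus. They share the gene filter and the fit, and their values are given side by side. All animals carry the strain label C57BlJ/6 and a virus label, so no group is free of virus. Setd7 overexpression is dated to postnatal day 14 by the design text, which gives no separate day for GFP, and the punches were taken in adulthood. The labels name neither the promoter of the virus nor the cells it entered, and they do not say that each library is a separate animal. The p-values therefore measure the spread between these libraries, which may be technical. In the text, replicates 1 of GFP control and 1 and 2 of GFP defeat are the female libraries.

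The VTA holds dopamine neurons that project to the striatum and the cortex, mixed with GABA and glutamate neurons and glia, and this circuit shapes motivation and the response to threat. In social defeat a mouse is placed with an aggressive resident, and many such mice later avoid social contact. Most transcripts with introns leave the nucleus only after splicing. In splicing, introns are removed by the spliceosome under the control of SR proteins, CLK kinases and other RNA-binding proteins. Many of these regulators adjust their own messages through retained introns or poison exons, and a class of long noncoding RNAs never leaves the nucleus at all.

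Each GFP library held between 26.5 and 50.8 M (1e6) reads assigned to genes. The ribosomal precursor Rn45s took 2.38, 2.96 and 3.80% of them in the GFP control libraries and 4.68, 3.65, 4.34 and 3.73% in the GFP defeat libraries. Pairs of libraries correlated at 0.972 to 0.982 within a group and at 0.968 to 0.981 between the GFP groups, and no 2 libraries of a group agreed within sampling noise. The dopamine neuron gene Th, which codes for tyrosine hydroxylase, read 9759.5, 3392 and 2508 normalized counts without defeat and 2539, 10298, 10764 and 17549.7 with it. The 3 libraries with low Th (replicates 2 and 3 of GFP control, replicate 1 of GFP defeat) were also left out in a separate fit, which leaves 1 control (n = 1, assumed to vary like the other groups). The virus target Setd7 read 14538, 13480.5 and 13664 without defeat and 10888, 14060.1, 12946 and 12799 with it, groups that overlap (log2 fold change −0.21 ± 0.40 (SE), adjusted p = 0.914 by limma). That SE and p draw on the spread within every group, including the libraries whose virus overexpresses Setd7, not on the GFP libraries alone.

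The microRNA host Mir124a-1hg and the splicing regulators Clk1 and Rnpc3 were among the transcripts that DESeq2 called lower in the defeated mice, and the chaperone Hsp90ab1 and the potassium channel Kcna3 among those it called higher. No gene passed an adjusted p of 0.05 in the limma test of log2 normalized counts (0 of 17755, 0.0%, smallest adjusted p = 0.339), and edgeR on the recovered reads also called 0 (0.0%, smallest adjusted p = 0.346). DESeq2, run as an alternative, called 85 of the 14312 genes to which it gave an adjusted p (0.594%), 57 of them lower (0.398%) and 28 higher (0.196%) after defeat. At an unadjusted p under 0.05, limma counted 1642 genes (9.25%), 865 higher (4.87%) and 777 lower (4.38%), and edgeR 1602 in either direction (9.02%). The groups did not overlap for 757 genes that were higher (4.26%) and 841 that were lower (4.74%). The fitted value was above 0 for 49.6% of all genes and below 0 for 50.4%. These shares by p, overlap and direction are the background for the counts of list members given in the following paragraphs. For a single gene, an exact two-sided rank-sum test of 3 against 4 libraries can go no lower than p = 0.0571. It could not reach the threshold here and was not run.

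The DESeq2 calls rested on several libraries. Of the 57 lower genes, 35 had their lowest value of the 7 GFP libraries in GFP defeat replicate 4, and 27 had their highest in GFP control replicate 1. The count of lower genes was 15 without GFP defeat replicate 4, 17 without GFP control replicate 2, 24 without GFP defeat replicate 2 and 37 without GFP defeat replicate 3. The count of higher genes was 2 without GFP defeat replicate 4, 10 without GFP control replicate 2, 17 without GFP defeat replicate 3, 48 without GFP control replicate 3 and 112 without GFP control replicate 1. The genes called whichever of the 7 libraries was left out were Cacng5, Coro6, Mir124a-1hg, Neb, Rbm3, Smpd4 and Ttc14, all lower after defeat. Without the 3 libraries low in Th, Mir124a-1hg, Rnpc3 and Tia1 were still called, and with the dopamine neuron level as a covariate Cacng5 and Mir124a-1hg were.

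Mir124a-1hg, the long noncoding host of miR-124, a microRNA abundant in neurons, had the smallest p of all genes. It read 2313, 2781 and 2314 normalized counts in control and 1103, 971, 1428 and 853 in defeat. Every defeated library lay below every control library, by a mean of 2.27-fold (log2 fold change −1.15 ± 0.18, adjusted p = 1e-05 by DESeq2, 0.339 by limma). The difference stayed between −1.27 and −0.96 whichever library was left out, and was −1.39 without the 3 libraries low in Th. A sister host, Mir124-2hg, read 884, 773 and 758 in control and 520.0, 726, 664 and 555 in defeat, again without overlap but by less (−0.39 ± 0.14, adjusted p = 0.266 by DESeq2). Mir9-3hg, host of another neuronal microRNA, had a value of −0.16. Of 8 microRNA host transcripts tested, 6 were lower and 2 passed an unadjusted p under 0.05 (25.0%), with a median of −0.16 against −0.002 over all genes.

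The next host, Mirg, spans a cluster of imprinted microRNAs at the Dlk1-Dio3 locus, transcribed from the maternal copy. It read 443, 447 and 408 in control and 200.2, 210.0, 321 and 192 in defeat, so each defeated library lay below the lowest control (−0.89 ± 0.20, adjusted p = 0.02 by DESeq2). RefSeq (GRCm38.p6, plus strand) places 19 mature microRNAs from 10 hairpins inside Mirg, and the 19 lie within chr12:109735669-109747949. Printed are 8 of them, the pair with a common seed and 6 others as examples, because Mirg is their host, and capitals mark the seed, bases 2 to 8, which pairs with target messages.
mmu-miR-453: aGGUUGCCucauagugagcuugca
mmu-miR-496a-5p: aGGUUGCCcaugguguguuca
mmu-miR-154-5p: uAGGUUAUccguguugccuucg
mmu-miR-377-3p: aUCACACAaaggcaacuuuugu
mmu-miR-541-5p: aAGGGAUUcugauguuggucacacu
mmu-miR-409-3p: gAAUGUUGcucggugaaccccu
mmu-miR-369-3p: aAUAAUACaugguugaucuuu
mmu-miR-410-3p: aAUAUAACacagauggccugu
The 19 microRNAs have 18 different seeds, and miR-453 and miR-496a-5p are the pair that share one. The libraries hold long RNA, so mature microRNAs were not measured: of the 10 hairpins 6 were tested, and the highest value was 45.6 normalized counts.

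Meg3 and Rian are the other long noncoding transcripts of that maternal cluster. Meg3 read 87245, 72622 and 68698 in control and 47317, 36308, 58154 and 26474 in defeat, with no overlap (−0.88 ± 0.27, adjusted p = 0.243 by DESeq2, 0.397 by limma). Rian read 14925, 13599 and 12374 in control and 12317, 11282, 12589 and 12042 in defeat, and the groups overlapped (−0.18 ± 0.09). The 3 transcripts of the cluster were thus all lower on average, Mirg and Meg3 by more than Rian.

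Snhg11, a snoRNA host that neurons express strongly, read 41461, 40436 and 34943 in control and 21113, 16575, 24619 and 13670.5 in defeat. The lowest control lay well above the highest defeated library (−1.05 ± 0.22, adjusted p = 0.0385 by DESeq2), and the value was −1.43 without the 3 libraries low in Th. Malat1, a scaffold of nuclear speckles where splicing factors gather, read 276799, 226059 and 234545 in control and 190315, 160774, 204375 and 119088 in defeat (−0.56 ± 0.19, adjusted p = 0.118 by DESeq2). Its control libraries were all above its defeated libraries. Miat, which also stays in the nucleus and was picked after its values were seen, read 5164, 5942 and 5949 against 3915, 2936, 4439 and 2167, again without overlap (−0.77 ± 0.26). Ftx, an X-linked noncoding gene, had −0.62 ± 0.18 with overlapping groups. Of the 18 nuclear long noncoding RNAs listed, 14 were lower and 7 passed an unadjusted p under 0.05, all lower (38.9%), with 2 called by DESeq2, Mirg and Snhg11. The annotation used for gene kinds lists Snhg11 as protein-coding, and it counts there in the next paragraph. The median of the list was −0.35, which became −0.18 when GFP control replicate 1 was left out and −0.56 in the fit lacking the 3 libraries low in Th.

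**Figure D1:**
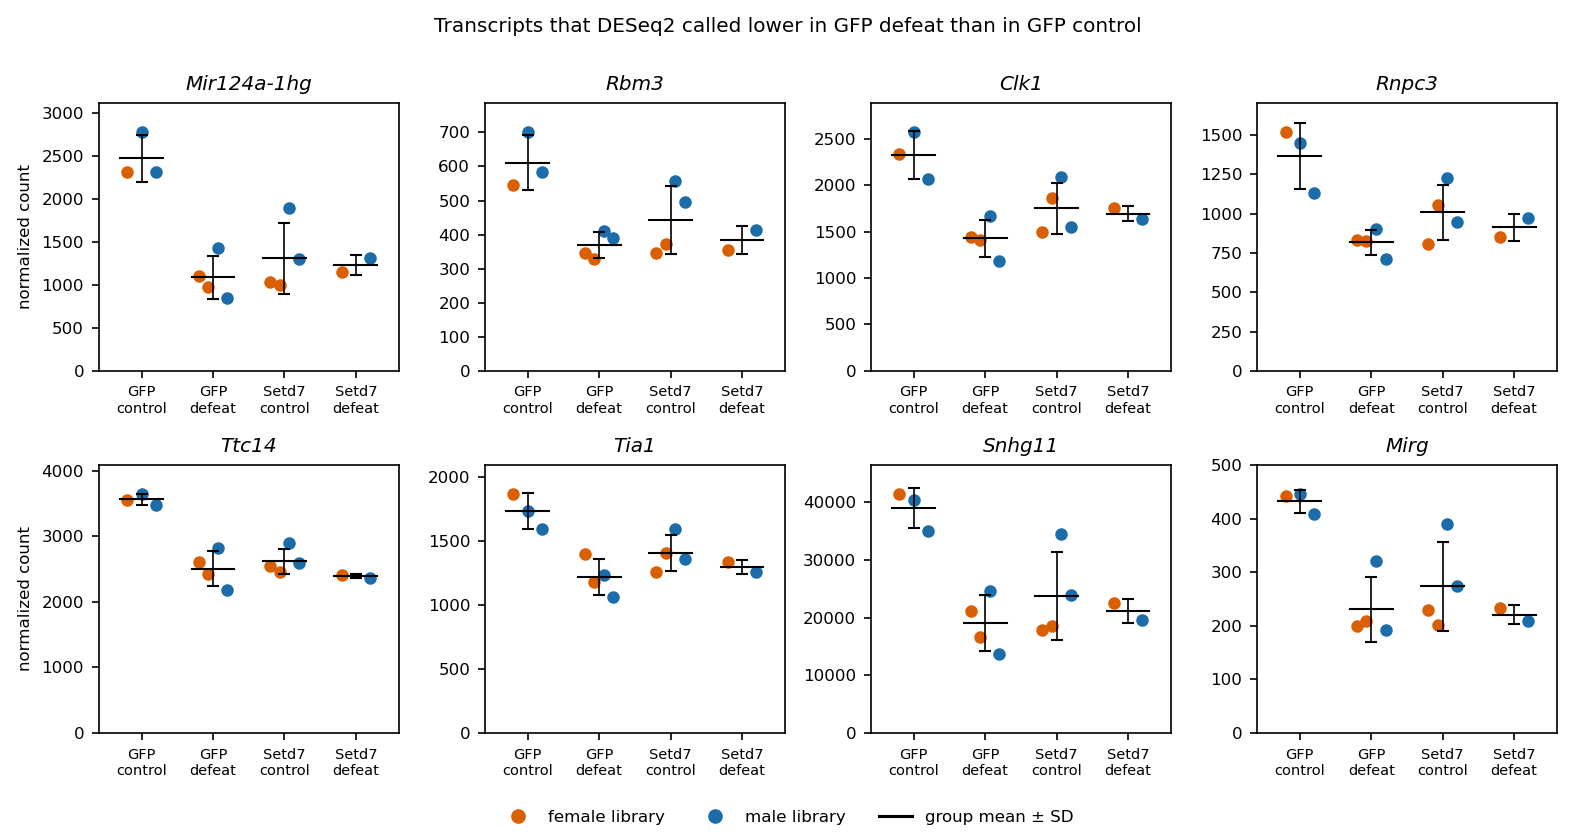
Normalized counts (vertical axes, from 0) of 8 transcripts that DESeq2 called lower in GFP defeat, in each library of the 4 groups, coloured by sex, with group mean ± SD. In every panel the 4 GFP defeat libraries lie below the 3 GFP control libraries, for Mir124a-1hg 853 to 1428 against 2313 to 2781; the Setd7 groups are shown for comparison.

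Long noncoding genes were mostly lower as a class. By annotation name, 1564 of the tested genes are long noncoding, and 1067 of them were lower against 497 higher, with a median log2 fold change of −0.18. Among 15739 protein-coding genes 7632 were lower and 8107 higher, with a median of 0.01. At an unadjusted p under 0.05, 108 long noncoding genes were lower (6.91%) and 21 higher (1.34%), against 637 (4.05%) and 833 (5.29%) of the protein-coding genes. Many noncoding genes have few reads, so the count was repeated for those with a mean of at least 100 normalized counts. Of 360 such genes 248 were lower, with a median of −0.13, and 42 were lower at an unadjusted p under 0.05 against 6 higher. Leaving out GFP defeat replicate 4 moved the median of all long noncoding genes to −0.09, and leaving out the 3 libraries low in Th moved it to −0.39. The share of Rn45s given above was lower on average in GFP control than in GFP defeat, and its part in the noncoding difference was not tested.

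**Figure D2:**
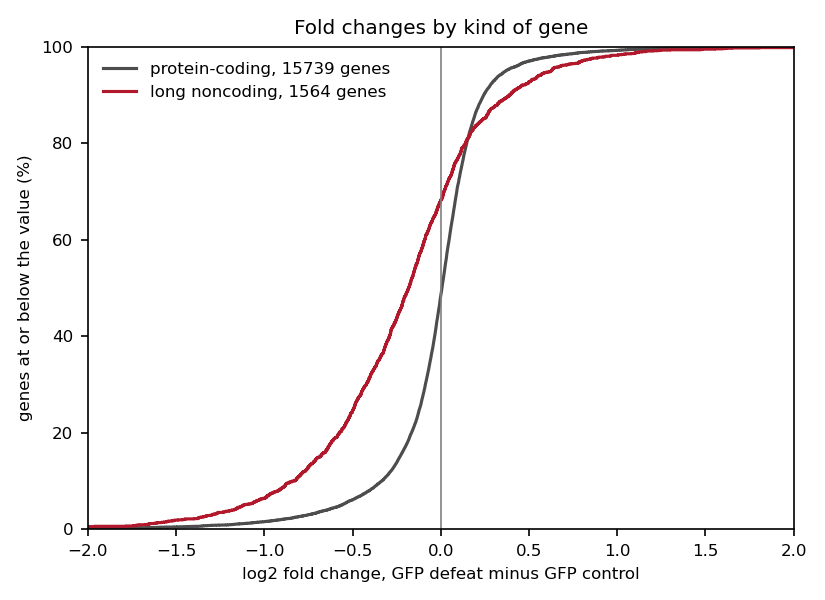
Cumulative share of genes (percent, vertical axis) by log2 fold change, GFP defeat minus GFP control (horizontal axis, −2 to 2), for 15739 protein-coding and 1564 long noncoding genes. The noncoding curve lies to the left, with medians of −0.18 and 0.01.

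Protein-coding genes that were lower after defeat also had more exons in the annotation. The 624 with a known length among those lower at an unadjusted p under 0.05 had a median of 13 exon blocks and 3.81 kb of exon, whereas the 811 that were higher had 7 blocks and 2.97 kb. Over all protein-coding genes the medians were 9 blocks and 3.33 kb. The 51 protein-coding genes that DESeq2 called lower had 15 blocks at the median, and the 26 called higher with a known length had 6. These are descriptions of genes chosen by the contrast itself and carry no test. The sets differed in abundance as well. Genes of any kind at an unadjusted p under 0.05 had a median of 370 normalized counts if lower and 1614 if higher. Over all genes tested the median was 517, and exon number was not compared at equal abundance.

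Genes of the cold-inducible and CLK-regulated RNA-processing list were lower in 38 of 40 members, with a median of −0.19. An unadjusted p under 0.05 was reached by 17, all lower (42.5%, against 4.38% of all genes). Without overlap 18 were lower (45.0%, against 4.74% of all genes), and DESeq2 called 8. Those 8 were known from earlier results on these libraries when the list was written, so their direction is no separate evidence. The list itself was chosen with those results known, so its other members are no independent test either. Of the other 32 members 30 were lower, with a median of −0.12, 9 passed the unadjusted p (28.1%), 10 did not overlap (31.2%) and DESeq2 called 0. The mean log2 level of the whole list was 11.10, 11.08 and 10.996 in the control libraries and 10.86, 10.79, 10.88 and 10.77 in the defeated libraries. Its median was −0.25 without the 3 libraries low in Th and −0.20 with the dopamine neuron covariate. For the 32 members not known before, those medians were −0.20 and −0.14. Of the core spliceosome and hnRNP genes 17 of 31 were lower, with a median of −0.01, and 1 in each direction passed the unadjusted p.

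Rbm3, which cold and other mild stress induce and which supports synapse repair, read 546, 702 and 585 in control and 347, 329.6, 409.9 and 390.0 in defeat. All 4 defeated libraries were below all 3 controls (−0.67 ± 0.11, adjusted p = 0.000413 by DESeq2). Cirbp, its closest relative, read 1295, 1591 and 1682 in control and 1484, 1198, 1690.2 and 1489 in defeat. The groups of Cirbp overlapped throughout (−0.02 ± 0.11, adjusted p = 0.976 by limma).

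The CLK kinases phosphorylate SR proteins and so release them to the spliceosome. Clk1 read 2330.3, 2577 and 2066 in control and 1437, 1412, 1667 and 1187 in defeat (−0.71 ± 0.14, adjusted p = 0.00243 by DESeq2). Clk4, its nearest paralog, read 904, 936 and 897 in control and 660.5, 696, 715 and 634 in defeat (−0.42 ± 0.10, adjusted p = 0.0345 by DESeq2). For both kinases the groups were apart, with a narrow spread among the control libraries of Clk4 (SD 20.7). Clk2 read 185, 168 and 166 against 129, 164, 130.4 and 160.2 (−0.25 ± 0.18), and Clk3 read 1412, 1299 and 1243 against 1180.5, 1198, 1254 and 1342 (−0.08 ± 0.08). Clk3 overlapped, and neither Clk2 nor Clk3 passed an unadjusted p under 0.05.

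Rnpc3 codes for a protein of the minor spliceosome, which removes a rare class of introns. It read 1522, 1446 and 1129.9 in control and 829, 823, 904 and 713 in defeat, a mean of 1.67-fold less and with no overlap (−0.73 ± 0.15, adjusted p = 0.00358 by DESeq2). Prpf39 and Snrnp70 belong to the U1 particle that marks the start of an intron. Prpf39 read 1354, 1065 and 1076 against 908, 898, 915 and 764 (−0.43 ± 0.10, adjusted p = 0.0345 by DESeq2), and Snrnp70 read 4444, 4109 and 3951 against 3077, 2668, 3910.2 and 2240.4 (−0.51 ± 0.16, adjusted p = 0.175 by DESeq2). Both had groups apart, although GFP defeat replicate 3 came close to the lowest control for Snrnp70. Luc7l3, a further partner of U1, had −0.37 ± 0.10.

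Tia1 and Tial1 bind uridine-rich RNA, steer the choice of exons and gather in stress granules. Tia1 read 1869, 1735 and 1591 in control and 1399, 1177, 1234 and 1058 in defeat (−0.52 ± 0.10, adjusted p = 0.00576 by DESeq2). Tial1 read 4239, 3994 and 3599.7 against 3508, 3295, 3142 and 3098 (−0.29 ± 0.07, adjusted p = 0.0345 by DESeq2). The paralogs shared the direction, with Tial1 nearly touching between GFP control replicate 3 and GFP defeat replicate 1. The SR proteins themselves were closer to 0: 10 of 11 were lower, with a median of −0.07, and 2 passed an unadjusted p under 0.05. Srsf5, 1 of those 2, read 2109, 1995 and 2051 against 1829.7, 1614, 1704 and 1426 (−0.32 ± 0.09, adjusted p = 0.127 by DESeq2).

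Ttc14 and Pnisr are less well described members of the list. Ttc14 read 3548, 3648 and 3480.2 in control, a spread of 84.4 (SD), and 2600.0, 2427, 2820.2 and 2177 in defeat (−0.51 ± 0.09, adjusted p = 0.000499 by DESeq2). Pnisr read 2872, 2492 and 2783 against 2087, 1807, 2124 and 1514 (−0.53 ± 0.12, adjusted p = 0.0229 by DESeq2). Both had wide gaps between the groups. Outside the list, and named after their values were seen, DESeq2 also called the RNA-binding genes Leng8 (−0.82 ± 0.21, adjusted p = 0.0225), Akap8l (−0.62 ± 0.15, 0.0247), Pan2 (−0.51 ± 0.13, 0.05) and Rbmx (−0.38 ± 0.09, 0.0351) lower. Pan2 is a subunit of a deadenylase that shortens poly(A) tails, and Rbmx is an hnRNP protein.

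**Figure D3:**
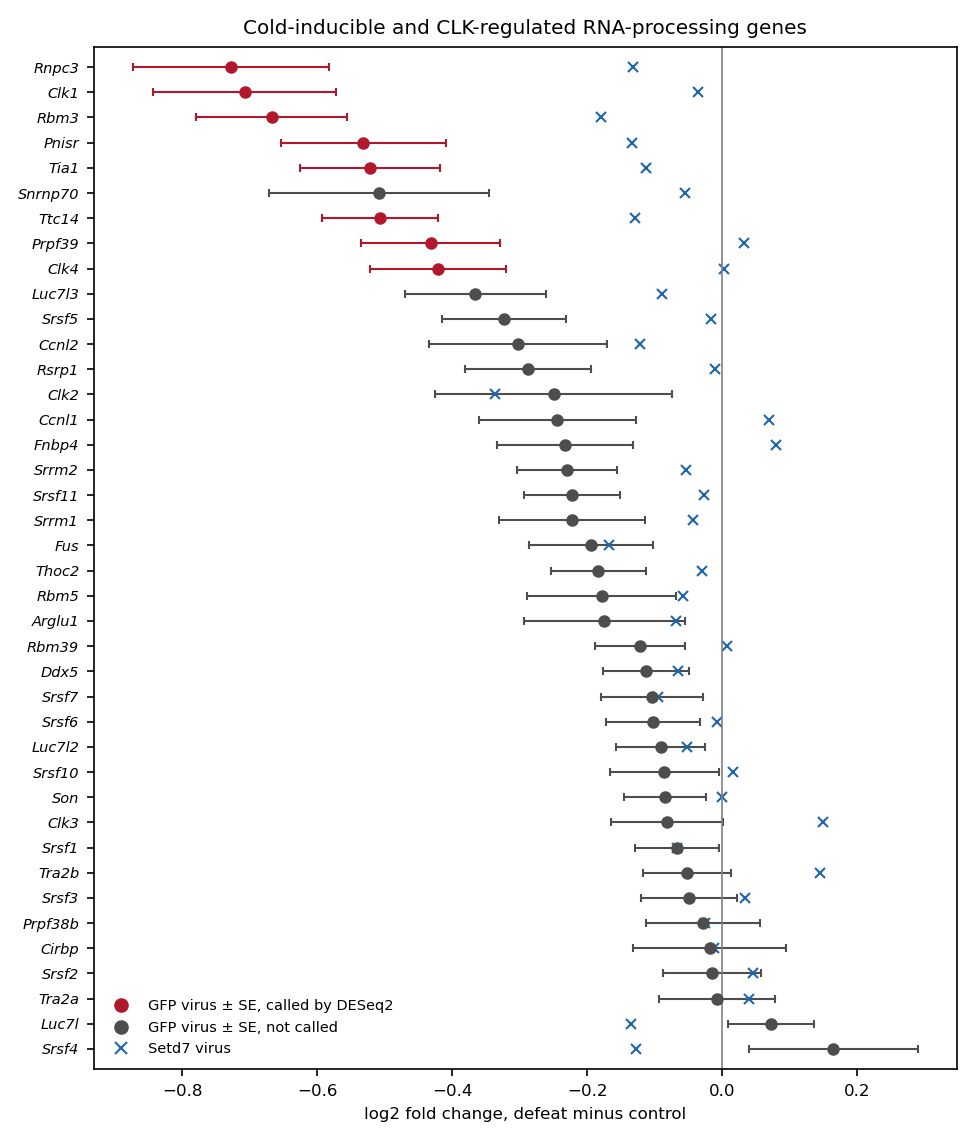
Log2 fold change, defeat minus control (horizontal axis), of the 40 members of the RNA-processing list with the GFP virus (dots with SE, red where DESeq2 called the gene) and with the Setd7 virus (crosses). With GFP 38 of 40 lie below 0, from −0.73 for Rnpc3, and with Setd7 28 of 40 do, with a median of −0.04. The 40 include the 8 members known from earlier results.

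Other genes named among the lowest belong to the cytoskeleton, membranes and signalling. Neb, the giant actin-binding nebulin, read 87.4, 279.8 and 196 in control and 57.5, 53.0, 43.5 and 44.3 in defeat (−1.68 ± 0.31, adjusted p = 0.000413 by DESeq2). The control values of Neb were widely spread, the groups did not overlap, and the value was −1.06 without the 3 libraries low in Th. Coro6, a coronin that binds actin, read 1128, 1415 and 1914 against 622, 807, 935 and 545 (−0.98 ± 0.21, adjusted p = 0.00396 by DESeq2). Pdlim7, a scaffold of actin filaments, read 648, 646 and 600.0 against 396, 396, 409 and 367, tight groups far from each other (−0.69 ± 0.14, adjusted p = 0.00576 by DESeq2). Drebrin, Dbn1, which organises actin in dendritic spines and was picked after its values were seen, had −0.32 ± 0.07 (adjusted p = 0.0293 by DESeq2).

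Cacng5, an auxiliary subunit that sets the gating and traffic of AMPA glutamate receptors, read 2071, 1259 and 1804 in control and 768, 766, 886 and 1040.1 in defeat. All defeated libraries were below all controls (−1.01 ± 0.22, adjusted p = 0.00576 by DESeq2), and the value was −1.16 with the dopamine neuron covariate. Smpd4, a sphingomyelin-cleaving enzyme, read 992, 954 and 973 against 693, 607, 679 and 504 (−0.65 ± 0.13, adjusted p = 0.00518 by DESeq2). Its controls lay close together, and every defeated library was below them. Ptpn2, a phosphatase that damps JAK-STAT signalling, had −0.53 ± 0.11 (adjusted p = 0.00830 by DESeq2), the protease Bmp1, which processes procollagen, −0.53 ± 0.11 (0.00948), and the transcription factor Ubp1 −0.31 ± 0.06 (0.00597). The collagens Col27a1 (−0.88 ± 0.22, 0.02) and Col11a1 (−0.95 ± 0.25, 0.0397), picked after their values were seen, were also among the 57.

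The 28 genes that DESeq2 called higher had a median log2 fold change of 0.35 and a largest value of 1.2 (H2ac6), against a median of −0.64 and a range of −1.68 to −0.22 for the 57 lower genes. Kcna3, a voltage-gated potassium channel subunit, read 1221, 1192 and 1173 in control and 1962, 1429.5, 1606 and 1881 in defeat. The control libraries lay close together and below every defeated library (0.52 ± 0.10, adjusted p = 0.00396 by DESeq2). Of the 40 potassium channel genes tested, 17 were higher and 23 lower, with a median of −0.03. Besides Kcna3, Kcna6 (0.20 ± 0.08), Kcnc4 (0.19 ± 0.06) and, lower in defeat, Kcnt1 (−0.46 ± 0.15) had groups that did not overlap. That is 7.5% higher and 2.5% lower, against 4.26% and 4.74% of all genes.

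Of the secreted and membrane proteins, Dkk3, a modulator of Wnt signalling, read 2606, 2282 and 1999 in control and 3239.6, 3837, 3002 and 3247 in defeat (0.53 ± 0.11, adjusted p = 0.00576 by DESeq2). Plpp2, a phosphatase that acts on lysophosphatidic acid and related lipids, read 214, 206 and 252 against 347, 340.0, 386 and 401 (0.72 ± 0.14, adjusted p = 0.00518 by DESeq2). Slc39a11, a zinc transporter, read 460.3, 535 and 532 against 716, 714, 662 and 774 (0.51 ± 0.10, adjusted p = 0.00597 by DESeq2). In all 3 genes the lowest defeated library was above the highest control. Castor2, a regulator of the mTORC1 pathway, had 0.23 ± 0.06 (adjusted p = 0.0203 by DESeq2) and Erp29, a chaperone of the endoplasmic reticulum, 0.39 ± 0.09 (0.0247).

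Tspyl3 (0.38 ± 0.07, adjusted p = 0.00518 by DESeq2), Magee1 (0.29 ± 0.06, 0.0177) and Pithd1 (0.31 ± 0.07, 0.0262) were called higher, as was Mfsd13a (0.35 ± 0.08, 0.0277). H2ac6, a replication-linked histone H2A gene, read 26.1, 28.6 and 30.2 in control and 51.6, 81.1, 54.0 and 84.7 in defeat (1.2 ± 0.27, adjusted p = 0.0345 by DESeq2). Its groups were apart, but near-identical histone genes can share its reads, so the value is uncertain. Histone deacetylases were split, with 7 of 15 higher: Hdac11 had 0.21 ± 0.06 (adjusted p = 0.0345 by DESeq2) and Hdac10 −0.52 ± 0.17 (0.235). Of the 21 genes of histone H3 lysine 4 methylation, the mark that Setd7 can write, 13 were lower with a median of −0.03. The methyltransferase Kmt2b, at 3181, 3894 and 3300.3 against 2974, 2905, 2987 and 2803, was the member with an unadjusted p under 0.05 (−0.22 ± 0.08, adjusted p = 0.468 by limma). It made 4.76% of the list, where 4.38% of all genes were lower at that p.

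DESeq2 called 2 chaperones of the cytosol higher. Hsp90ab1, the constitutive HSP90, read 21634, 23608 and 23720.3 in control and 25763, 27535, 26673 and 27798 in defeat (0.24 ± 0.06, adjusted p = 0.02 by DESeq2). Dnajb1, the HSP40 that works with HSP70, read 2156, 2410.1 and 2321 against 2526, 2779, 3026 and 3024 (0.32 ± 0.08, adjusted p = 0.0467 by DESeq2). Neither gene overlapped between the groups. The inducible HSP70 gene Hspa1a read 389, 467 and 667 against 655, 541, 1102 and 866 and its copy Hspa1b 351, 392 and 576 against 716, 466, 1162 and 905, with overlap in both. They share reads, so each alone is uncertain (0.66 ± 0.22 and 0.87 ± 0.28). Of 25 heat shock and folding genes 20 were higher, 5 of them at an unadjusted p under 0.05 (20%), with a median of 0.06, which became 0.13 when GFP control replicate 3 was left out and 0.21 with the 3 libraries low in Th removed.

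**Figure D4:**
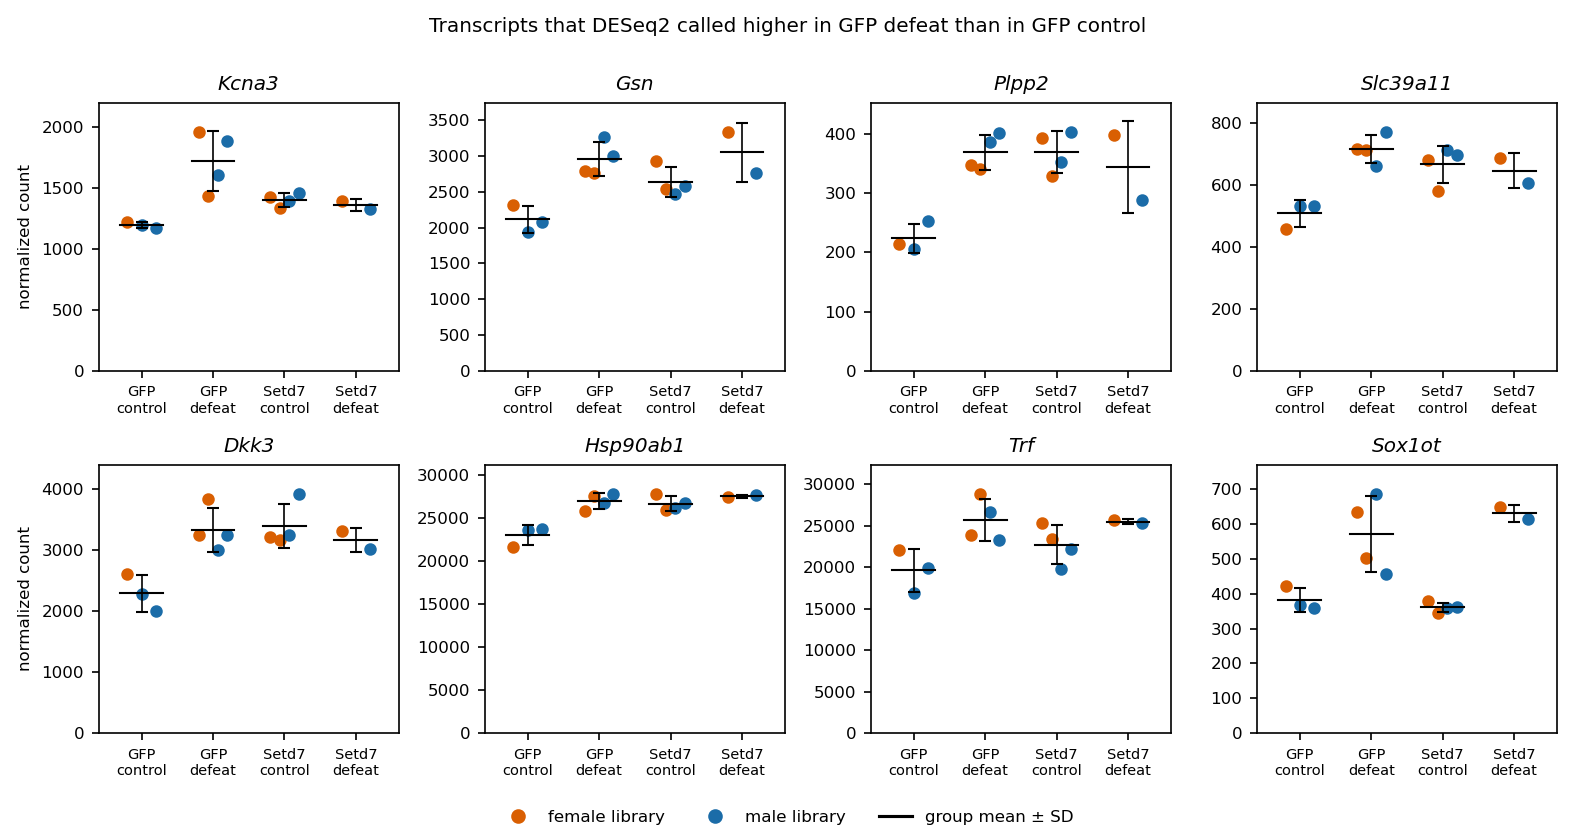
Normalized counts (vertical axes, from 0) of 8 genes that DESeq2 called higher in GFP defeat, in each library of the 4 groups, coloured by sex, with group mean ± SD. The 4 GFP defeat libraries lie above the 3 GFP control libraries in each panel, for Kcna3 1429.5 to 1962 against 1173 to 1221.

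Ribosomal protein genes were mostly higher in defeat. Of 50 tested 47 were higher, with a median of 0.19. At an unadjusted p under 0.05, 18 were higher (36.0%, against 4.87% of all genes). Without overlap between the groups 13 were higher (26.0%, against 4.26% of all genes). Limma and DESeq2 called none of them at an adjusted p of 0.05. Rpl14 read 1136, 1038 and 1108 in control and 1229, 1249.7, 1318 and 1353 in defeat (0.24 ± 0.07). It was higher in each defeated library than in each control. The median stayed between 0.16 and 0.19 when single libraries were left out and was 0.24 without the 3 libraries low in Th. Many of these genes have processed copies that share reads, so single values are uncertain. The translation factors, which act on the ribosome, had 22 of 32 higher with a median of 0.06.

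Genes of cholesterol synthesis were higher in 21 of 23, with 5 at an unadjusted p under 0.05 (21.7%) and none without overlap. Their median was 0.17, and 0.08 without GFP control replicate 3. Srebf2, the factor that turns the pathway on, read 8274, 10133 and 8376 against 9784, 9982, 10655 and 11789.8 (0.27 ± 0.09). Its GFP control replicate 2 overlapped the defeated libraries. Genes of the unfolded protein response were higher in 21 of 25, with a median of 0.12 that was 0.07 without GFP defeat replicate 4, among them the chaperone Hspa5 (0.25 ± 0.10) and the disulfide isomerase Pdia4 (0.25 ± 0.09), neither called by a test adjusted over all genes. Of 40 nuclear genes of oxidative phosphorylation 32 were higher, with a median of 0.07 that became −0.02 without GFP control replicate 1.

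Markers of oligodendrocytes, the myelinating glia, were higher in 19 of 20, with a median of 0.22 and 6 at an unadjusted p under 0.05 (30%). Gsn, an actin-severing protein of mature oligodendrocytes, read 2319.9, 1938 and 2081 in control and 2788, 2757, 3263 and 3004 in defeat (0.47 ± 0.09, adjusted p = 0.00518 by DESeq2). Trf, the transferrin that carries iron, read 22050.2, 16873 and 19916 against 23921, 28852, 26654 and 23244 (0.37 ± 0.09, adjusted p = 0.0392 by DESeq2). The lineage factor Olig1 read 5474, 5619.8 and 5833 against 6321, 7295, 7298 and 6765 (0.30 ± 0.07, adjusted p = 0.0377 by DESeq2). These 3 genes had groups apart, and Mag, of the myelin sheath, nearly touched at 12339.5 in GFP control replicate 3 and 12399.6 in GFP defeat replicate 4. Precursor markers were higher in 11 of 14 with a median of 0.17. Without the 3 libraries low in Th the medians were 0.10 for oligodendrocytes and 0.00 for precursors. Without GFP defeat replicate 3 the first was 0.13, and without GFP control replicate 3 the second was 0.09. The oligodendrocyte median was 0.08 with the dopamine neuron level as a covariate and 0.01 with the dopamine neuron and thalamus levels together. In punches of bulk tissue, a different number of cells of a type and a different amount of RNA in each such cell cannot be told apart.

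Markers of dopamine neurons were higher in 28 of 28, with a median of 0.75, but they followed single libraries. The mean log2 level of the list was 11.30, 10.29 and 10.01 in control and 10.42, 11.30, 11.29 and 11.88 in defeat, so GFP control replicate 1 lay with the defeated libraries and GFP defeat replicate 1 with the controls. The median was 1.32 without GFP control replicate 1, 0.46 without GFP defeat replicate 4, and 0.15 without the 3 libraries low in Th. The neurotensin receptor Ntsr1 (0.99 ± 0.33), the pioneer factor Foxa1 (0.91 ± 0.33) and the dopamine transporter Slc6a3 (1.05 ± 0.61) had overlapping groups.

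Markers of the thalamus, which lies next to the midbrain, were lower in 11 of 13 with a median of −0.48. Tcf7l2, a transcription factor of thalamic neurons, read 1869, 9009 and 9559 in control and 982, 1349, 1449 and 6575 in defeat, so for this gene GFP defeat replicate 4 sat with 2 controls (−1.35 ± 0.47, adjusted p = 0.449 by limma). The mean log2 level of the list was 8.88, 11.21 and 9.205 in control and 8.69, 8.43, 8.59 and 10.34 in defeat. By that mean GFP control replicate 3 lay near replicate 1, and GFP control replicate 2 was the highest. The median was −1.03 without GFP control replicate 3, 0.13 without GFP control replicate 2, and −0.02 with the 3 libraries low in Th removed. Tectum markers were lower in 6 of 7 (median −0.92, and −0.45 without GFP defeat replicate 2 or −1.59 without GFP control replicate 2). How much of any gene's difference moves with dopamine neuron or thalamus tissue in the punch was tested only through refits. These took the dopamine neuron level, the thalamus level or both as covariates, or left out the 3 libraries low in Th.

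Markers of other cells and regions had smaller or mixed differences. Astrocytes had 11 of 18 higher (median 0.03), microglia 13 of 20 (0.08), endothelial and mural cells 10 of 21 (−0.00), meningeal fibroblasts 3 of 16 (−0.18), choroid plexus 8 of 11 (0.19) and blood 3 of 4 (0.23). GABA neuron markers had 8 of 16 higher (0.02), glutamate neuron markers 5 of 14 (−0.14), hindbrain and raphe markers 6 of 9 (0.14) and hypothalamus markers 5 of 10 (−0.05). Astrocytes had 1 member higher at an unadjusted p under 0.05, glutamate neurons 1 lower, and the other lists of this paragraph had none. The direction for microglia turned in other fits: 17 of 20 were lower without the 3 libraries low in Th (median −0.22) and 18 of 20 with the dopamine neuron covariate (−0.26).

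At an adjusted p of 0.05 limma called 0 of all 17755 genes (0.0%). It therefore called no member of any list, including the gene groups that stress is known to engage. Immediate early genes, which neuronal activity switches on, had 9 of 20 higher (median −0.03), and Nr4a3 (0.44 ± 0.18) and Jun (0.20 ± 0.08) reached an unadjusted p under 0.05, while with the dopamine neuron covariate 17 of 20 were higher (median 0.22). Glucocorticoid-responsive genes had 12 of 20 higher (median 0.07), 3 of them and 1 lower gene at an unadjusted p under 0.05, led by Arl4d at 305, 327 and 478 against 381, 602, 872 and 739.8 (0.81 ± 0.24, adjusted p = 0.0606 by DESeq2) and, in the other direction, Hif3a (−0.49 ± 0.18). Arl4d overlapped between the groups and Hif3a did not. The CRF system and steroid receptors had 9 of 14 higher (0.04), neurotrophins 8 of 12 (0.07), and interferon and antigen presentation genes 21 of 28 (0.11) with 0 at an unadjusted p under 0.05. The interferon direction turned to 26 of 28 lower both without the 3 libraries low in Th (median −0.44) and with the dopamine neuron covariate (−0.20). Neuropeptides and their receptors had 18 of 31 higher (0.19), with a median of −0.08 without the 3 libraries low in Th. At an unadjusted p under 0.05, 5 members were higher (16.1%, against 4.87% of all genes). Without overlap 2 were higher (6.45%, against 4.26% of all genes). Of the neuropeptides, Pnoc, the nociceptin precursor, had 0.33 ± 0.10 and its receptor Oprl1 0.22 ± 0.08. Of glutamate and GABA receptors 13 of 38 were higher (−0.03), with the kainate receptor subunit Grik5 at 0.22 ± 0.06. Grik5 was the 1 member whose groups did not overlap (2.63%, where 4.26% of all genes were higher without overlap).

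Circadian clock genes were lower in 15 of 23, with 10 at an unadjusted p under 0.05 (43.5%) and a median of −0.11. Bhlhe40, a repressor in the clock loop, read 2279, 3069 and 3171 in control and 2162, 2261, 2272 and 2239 in defeat (−0.31 ± 0.09), and the repressor Nr1d1 read 1704, 2143 and 1920.5 against 1496, 1683, 1429 and 1655 (−0.29 ± 0.11). In both genes the control with higher Th, replicate 1, was the lowest control and lay just above the highest defeated library. Without the 3 libraries low in Th the values were −0.02 and −0.08 and the median of the list 0.08. With the dopamine neuron covariate the median was −0.11, and it stayed between −0.13 and −0.08 when single libraries were left out.

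**Figure D5:**
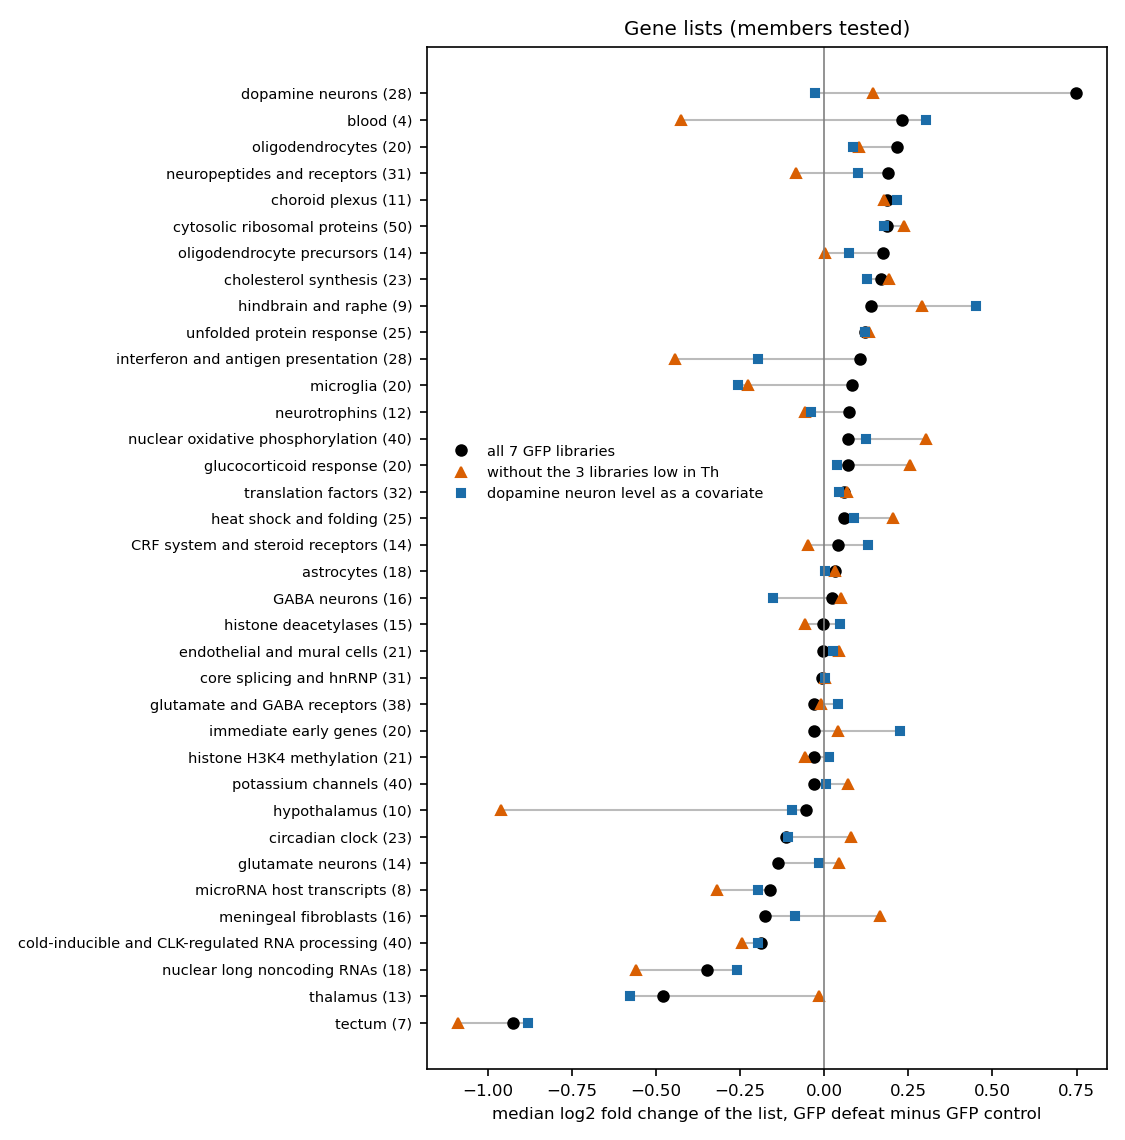
Median log2 fold change, GFP defeat minus GFP control (horizontal axis), of 36 gene lists with the number of members tested, over all 7 GFP libraries, without the 3 libraries low in Th, and with the dopamine neuron level as a covariate. The medians of the RNA-processing list (−0.19, −0.25 and −0.20) and of the ribosomal list (0.19, 0.24 and 0.18) stay close together. The RNA-processing list includes 8 members known from earlier results. The median of dopamine neurons was 0.75 and 0.15 in the first 2 fits, and near 0 by construction with its own level as covariate.

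The same genes were then read between the Setd7 groups, whose means do not enter the GFP contrast, although these libraries share its estimate of spread. The 57 lower genes had a median of −0.06 between Setd7 defeat and Setd7 control, 36 of them below 0 where 52.0% of all genes were, and 2, Mbd6 and Pisd-ps3, were lower at an unadjusted p under 0.05 (1.13% of all genes were). The 28 higher genes had a median of −0.02, with 11 above 0 where 48.0% of all genes were. Mir124a-1hg read 1035, 1000.2, 1891 and 1302 with the Setd7 virus alone and 1145 and 1313 after defeat as well (−0.04 ± 0.21). Rbm3 read 346, 371, 558 and 494 with the Setd7 virus alone and 355 and 413 after defeat as well (−0.18 ± 0.13). Setd7 control replicate 3 held the highest value of the Setd7 libraries for both. Distances to the GFP defeat and GFP control means were compared for each Setd7 library. Setd7 control replicates 1 to 4 lay nearer to GFP defeat for 52, 49, 19 and 48 of the 57 lower genes. Setd7 defeat replicates 1 and 2 did so for 49 and 49. Of the 28 higher genes, Setd7 control replicates 1 to 4 did so for 24, 17, 21 and 23. Setd7 defeat replicates 1 and 2 did so for 24 and 18 of them. The genes were chosen on the GFP libraries, so these counts are a description. Setd7 defeat has only 2 libraries, and the column of replicate 1 carries a longer number than its title, so whether it holds 1 animal is not known.

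The test of the difference itself, the defeat effect with GFP minus that with Setd7, called 0 genes by limma (0.0%, 880 at an unadjusted p under 0.05, 4.96%) and 0 by edgeR. DESeq2 called 1 gene, Cdh1 (0.00563%). For Mir124a-1hg the difference was −1.11 ± 0.27 (unadjusted p = 0.00147, adjusted p = 0.942 by limma), for Cacng5 −1.43 ± 0.34 (0.00103, 0.942) and for Clk1 −0.67 ± 0.20 (0.00593, 0.942). As the genes were chosen for their effect with GFP, which enters this difference, the unadjusted values are a description. Whether defeat acts differently under the Setd7 virus is therefore not shown for any gene by the adjusted limma test.

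Sox1ot, the long noncoding transcript that overlaps Sox1, stood apart from the other 27 higher genes and is named after its values were seen. With GFP it read 423, 366 and 359 without defeat and 636, 503, 687 and 458 with it (0.55 ± 0.14, adjusted p = 0.0345 by DESeq2). With Setd7 it read 378, 345, 358 and 363 without defeat and 648 and 613 with it (0.80 ± 0.15, unadjusted p = 0.000167). All 6 defeated libraries lay above all 7 libraries without defeat. It was the 1 gene of the 28 that was also higher at an unadjusted p under 0.05 with the Setd7 virus, where 1.45% of all genes were.

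The defeat effect was also compared between females and males with GFP, although GFP control holds 1 female library, which is assumed to vary like the others, so that the SE and p rest on the spread in the other groups. Limma called 0 genes for this difference (0.0%, 1212 at an unadjusted p under 0.05, 6.83%), edgeR 0 and DESeq2 72 (0.406%), 35 with a higher and 37 with a lower value in females. None of these 72 was among the 85 genes of the defeat effect, and 5 of the 85 had an unadjusted p under 0.05 for the sex difference by limma. Neb was one of them, with a difference, female minus male, of 1.74 ± 0.45 (unadjusted p = 0.00294, adjusted p = 0.457 by limma). Its female control read 87.4 and its male controls 279.8 and 196, whereas its defeated libraries of both sexes were between 43.5 and 57.5.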

How the data were processed

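RNA of VTA punches was purified on RNeasy Micro columns and made into TruSeq libraries after Ribo-Zero depletion, per the labels. The submitters' processing notes name Bowtie2, featureCounts, DESeq2 and the build GRCm39, without versions (per the submitters' processing notes). Whether counting used strand is not given in the sources used here, so overlapping antisense transcripts may share reads. The authors deposited 1 table of normalized signal (size-factor scaled gene counts) covering 26264 genes and 13 libraries. All 341432 values (100.0%) came out within 0.01 of a whole read after division by each library's step, and these recovered reads entered the count tests.

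The comparison, its members, the gene lists and the tests were chosen with earlier results of these data known. Genes with 10 normalized counts in at least 2 libraries were tested, and 8509 were not. The main, two-sided test used limma-trend (version 3.58.1, R 4.3.3). Its input was log2(normalized count + 1), and its terms were sex and the mean of each of 4 groups, fitted to the 13 libraries together, with Benjamini-Hochberg adjustment over all genes and a threshold of 0.05. Fold changes are thus on the log2(value + 1) scale and understate low genes. edgeR 4.0.16 (quasi-likelihood) and DESeq2 1.42.0 on recovered reads, with the same design, were alternatives. DESeq2 left 3443 genes without an adjusted p.

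Named by rule were Setd7, the 12 genes per direction with the smallest limma p and the 12 with the smallest DESeq2 adjusted p (mean of at least 30 normalized counts, no predicted, RIKEN, clone, Xist, Tsix or Y-linked names), and up to 5 members of each of 36 lists by p. Other genes are marked as named after their values were seen, or belong to a family or list described member by member. Gene kinds and exon lengths were matched by name to GENCODE vM21, and microRNA sequences to RefSeq GRCm38.p6, whereas the table uses GRCm39. Sequences of miR-124 are not used here. Some list members are not reported here. The statistics were tested on simulated data.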

Additional observations from a re-analysis of the deposited data

Results flagged for a closer look

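GFP defeat replicate 4 lay far from the other 3 defeated libraries in 2 list means. Its mean log2 level of thalamus markers was 10.34, against 8.69, 8.43 and 8.59 in replicates 1 to 3, so that its gap to the nearest library took 0.862 of the range of the group. Its mean of cholesterol synthesis genes was 10.57, against 10.38, 10.41 and 10.40, with a gap of 0.847 of the range. Both shares exceed Dixon's 95% critical value for 4 samples. Of 64 named genes and list means examined in GFP defeat these 2 were beyond it, and chance flags about 1 in 20. Whether this punch held more tissue of the thalamus was not tested beyond its marker values, with Tcf7l2 at 6575 against 982 to 1449 in the other 3.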

How the results depend on the processing

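Limma called 0 genes under each of its alternatives. DESeq2 called 85 for defeat, 1 for the difference between viruses and 72 for that between sexes. DESeq2 called 28 higher and 57 lower genes in the main fit, and 16 higher genes in the 7 GFP libraries alone. It called 7 higher and 5 lower genes without the 3 libraries low in Th, and 0 higher and 2 lower with the dopamine neuron covariate. With single libraries left out it called 2 to 112 higher and 15 to 79 lower genes. These counts cover all genes called in each refit, whether or not they were among the 85. Those of the 85 still called without the 3 libraries low in Th are named in the Results, and all were lower. At an unadjusted p under 0.05, 509 genes were lower with the dopamine covariate (777 in the main test). Of 864 list medians under alternatives 96 changed sign, 22 of them from a median of at least 0.1 in size, which are given here. At any size, the sign changed for 12 of 36 lists with the dopamine covariate, 13 without the 3 libraries low in Th and 18 when 1 library was left out. With dopamine and thalamus covariates the reversed medians were −0.0425 (dopamine neurons), 0.127 (glutamate neurons), 0.103 (thalamus), −0.245 (hindbrain), 0.0989 (fibroblasts) and −0.435 (interferon). With the dopamine covariate they were −0.0279 (dopamine neurons) and −0.197 (interferon), and with the thalamus covariate 0.0429 (thalamus) and −0.0296 (interferon). Without the 3 libraries low in Th they were 0.045 (glutamate neurons), 0.166 (fibroblasts), −0.425 (blood), 0.0807 (clock), −0.0829 (neuropeptides) and −0.444 (interferon). In that fit Setd7 was at 0.33, although its remaining GFP control read above each remaining GFP defeat library. That sign comes from the sex term, which is estimated with the Setd7 virus libraries included. Sample weights gave −0.0285 for choroid plexus. Leaving out 1 library reversed, with these ranges, thalamus (−1.03 to 0.134), fibroblasts (−0.496 to 0.059), choroid plexus (−0.01 to 0.289), blood (−0.028 to 0.492) and interferon (−0.0436 to 0.358). Those of dopamine neurons and thalamus under their own covariate are near 0 by construction; for the others the cause was not tested. Of 672 values for named genes, 644 kept direction and side of the threshold, 27 passed by DESeq2 and Setd7 reversed. The fits with a thalamus covariate and the DESeq2 refits were chosen after seeing the data. No paired analysis was possible because the libraries carry no number shared between groups. Precision is limited by 3 and 4 libraries a group more than by depth.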
